A study of Mus musculus with 12 samples.

Results

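The genes described here encode the machinery that carries TLR9 to the endosome and passes its signal on through MyD88: 10 genes named for their role in the pathway, of 24310 features in each library. They are the trafficking factors Unc93b1, Cnpy3 and Slc15a4, the adaptor Myd88, the kinases Irak4, Irak1 and Irak2, the related Irak3, and the ubiquitin ligases Traf6 and Traf3. RNA was sequenced from CMM cells, a GFP-marked mouse acute myeloid leukaemia with inv(16), which had been engrafted intravenously into C57BL/6 mice. The animals were given 3 intravenous doses, on alternate days, of PBS, of CpG-scrODN (a CpG oligonucleotide with a scrambled partner) or of CpG-STAT3dODN (the CpG oligonucleotide joined to a decoy sequence for STAT3). Cells positive for c-Kit were enriched from the spleen 1 day after the last dose, and the study asked how TLR9 stimulation with STAT3 inhibition acts on differentiation of the leukaemia. All groups thus carried the same leukaemia in the same host strain, the sources used here do not state the age or sex of the mice, and enrichment by c-Kit leaves room for host spleen cells.

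The group of each library was taken from its label, with 4 libraries per group, but the column headers gave all 12 libraries another group. The header word was DEC for the PBS label, PBS for the CpG-scrODN label and SCR for the CpG-STAT3dODN label. Groups are therefore called by their labels, every comparison sets one label against another, and a difference is not credited to any treatment. No label ties a library to a single mouse, so the p-values reflect only how these libraries vary, and that variation could be technical.

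TLR9 recognises unmethylated CpG DNA inside endosomes. The membrane protein UNC93B1 escorts it there from the endoplasmic reticulum, where CNPY3 (also called PRAT4A) helps fold the receptor, and SLC15A4 is a proton-coupled histidine and peptide transporter of endolysosomes that endosomal TLR responses need. The bound receptor recruits MyD88, which assembles IRAK4 with IRAK1 and IRAK2. TRAF6 then passes the signal towards NF-kB and MAP kinases, TRAF3 takes part in type I interferon induction, and IRAK3 (IRAK-M) is best known as a restraint in myeloid cells.

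Several facts of the libraries bear on what follows. Estimated depth was 31410000 to 36170000 reads, so that an RPKM (read number divided by transcript length and by library size) of 1 stood for at least 31.4 reads per kilobase. Kit RNA was present in every library, at 10.5 to 51.1 RPKM, and the summed RPKM of 10 markers of c-Kit positive myeloid leukaemia was 458 to 585 in PBS-labelled libraries, 230.0 to 291 in CpG-scrODN-labelled ones and 312 to 475 in CpG-STAT3dODN-labelled ones. These markers did not move together: the granule enzyme gene Mpo had means of 100, 23.6 and 47.4 RPKM in the same order of groups, Kit 21.0, 32.2 and 35.5, Cd34 15, 28.9 and 24.2, and Myb 52.5, 53.3 and 54.7. The summed RPKM of 12 B-cell markers was 196 to 737, 10.7 to 27.7 and 24.7 to 118 in the same order of groups, and no marker of any list was at 0 in all libraries. Replicate 4 labelled PBS and replicate 4 labelled CpG-STAT3dODN stood apart by Fos, an immediate-early transcription factor, which was at 12.9 and 5.91 RPKM there and at 486 to 1160 in the other 10.

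All 10 genes passed the filter on low values (4 or more libraries with an RPKM of 1 or more), as did 10886 features in all. Ordered by the median RPKM over the 12 libraries, which is scaled to length, Myd88 came first at 48.5. It was followed by Irak1 (25.7), Cnpy3 (24.5), Irak4 (15.1) and Unc93b1 (13.9), and then by Slc15a4 (7.38), Traf6 (7.0), Traf3 (6.56), Irak2 (3.95) and Irak3 (3.42). These medians lay between the 20.5th and the 88.3rd percentile of the features tested. Along this order, neighbours had ranges that did not overlap only at Myd88 and Irak1 and at Cnpy3 and Irak4. Neighbours with overlapping ranges could still keep the same order in every library, as Unc93b1 lay above Slc15a4 in 12 of 12. The genes differed more in how far they varied: the highest library was 1.18 times the lowest for Irak1 and 9.36 times the lowest for Unc93b1, while Irak2, at 3.34 times, came next after Unc93b1.

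**Figure D1:**
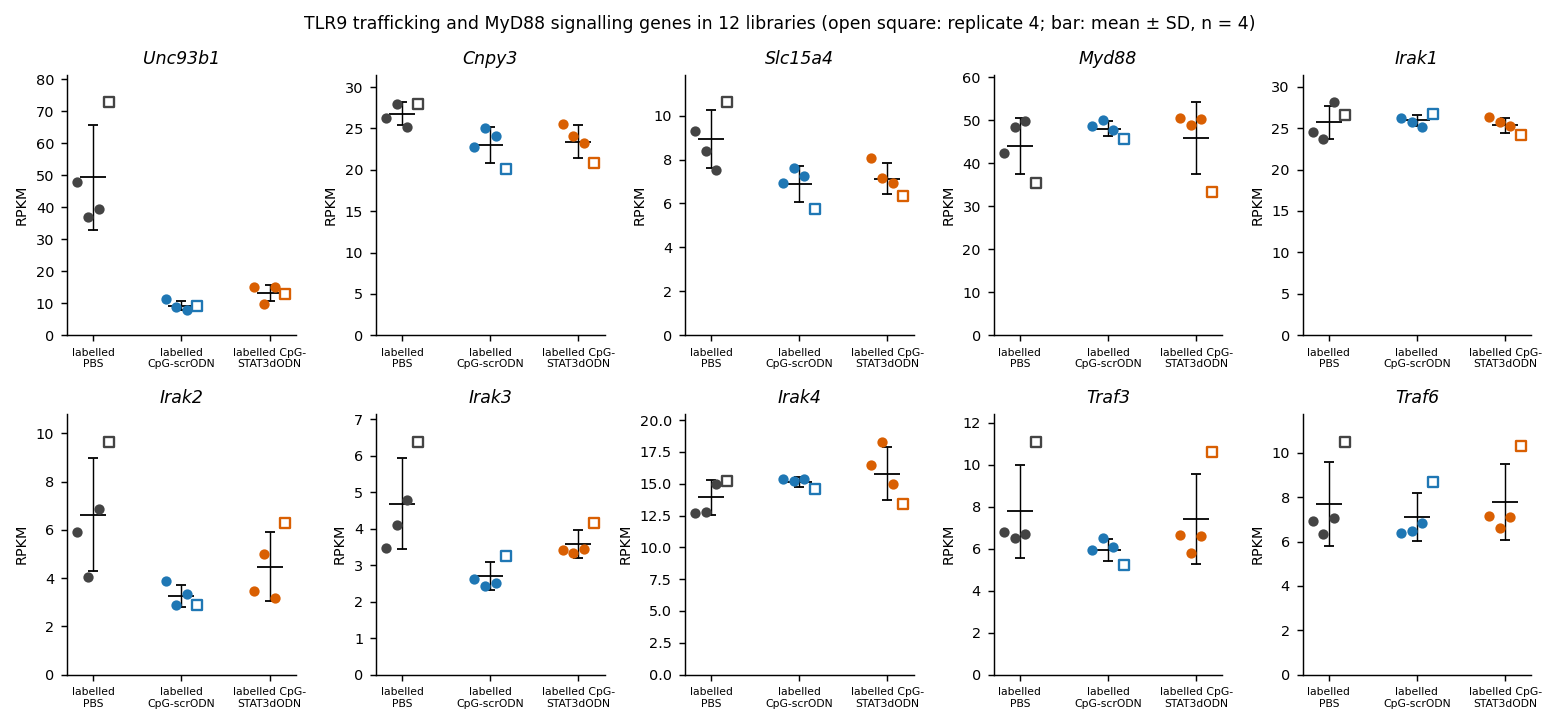
RPKM (vertical axes, from 0) of each of the 10 genes in the 4 libraries of each labelled group; points are libraries, open squares are replicate 4, and bars are the mean with SD. Unc93b1 lies at 37.1 to 72.8 in PBS-labelled libraries and at 15.2 or less in the other 8, whereas Irak1 stays between 23.7 and 28.1 throughout.

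Unc93b1 (chr19:3935158-3949340, GRCm38, which mm10 denotes, as for all positions here) was the trafficking gene that set the labelled groups apart. Its RPKM in replicates 1 to 4 was 48.0, 37.1, 39.5 and 72.8 in PBS-labelled libraries, 11.3, 8.95, 7.78 and 9.05 in CpG-scrODN-labelled ones, and 15, 9.78, 15.2 and 12.8 in CpG-STAT3dODN-labelled ones. Every library labelled PBS lay above each of the other 8, whose 2 groups overlapped. The group means were 49.4 ± 16.3, 9.26 ± 1.46 and 13.2 ± 2.51 RPKM (SD, n = 4 each), so that the mean of the libraries labelled PBS was 5.33 times that of CpG-scrODN and 3.74 times that of CpG-STAT3dODN. On the log2(RPKM + 1) scale, which understates the change of low genes, Unc93b1 fell by 2.25 ± 0.20 in CpG-scrODN against PBS (SE; 95% interval -2.70 to -1.81; limma adjusted p = 0.000113). In CpG-STAT3dODN against PBS it fell by 1.80 ± 0.20 (95% interval -2.24 to -1.35; limma adjusted p = 0.000818). Both comparisons share the libraries labelled PBS. The difference between CpG-STAT3dODN and CpG-scrODN was 0.46 (95% interval 0.01 to 0.90) and did not pass, with a limma adjusted p of 0.96.

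Cnpy3 (chr17:46735711-46752713) did not share that pattern. It was at 26.2, 27.9, 25.2 and 27.9 RPKM in PBS-labelled libraries, at 22.7, 25, 24.1 and 20.1 in CpG-scrODN-labelled ones, and at 25.5, 24.1, 23.2 and 20.8 in CpG-STAT3dODN-labelled ones. The first 2 groups did not overlap, but the difference was small, -0.22 (95% interval -0.41 to -0.03; limma adjusted p = 0.243), and that of CpG-STAT3dODN against PBS was -0.19 (limma adjusted p = 0.522). Within each library, Unc93b1 RNA was 1.33 to 2.61 times the level of Cnpy3 under the PBS label, 0.323 to 0.497 times under CpG-scrODN and 0.406 to 0.653 times under CpG-STAT3dODN. Slc15a4 (chr5:127594545-127633292) was at 9.32, 8.38, 7.52 and 10.6 RPKM in PBS-labelled libraries, 6.95, 7.63, 7.24 and 5.75 in CpG-scrODN-labelled ones, and 8.06, 7.17, 6.93 and 6.35 in CpG-STAT3dODN-labelled ones. Its groups overlapped, and neither the difference of -0.33 for CpG-scrODN against PBS (95% interval -0.58 to -0.08; limma adjusted p = 0.165) nor that of -0.29 for CpG-STAT3dODN against PBS (limma adjusted p = 0.393) passed.

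Markers of B cells, which express Tlr9 and Unc93b1 themselves, moved with the fall of Unc93b1. The summed B-cell RPKM in replicates 1 to 4 was 300, 196, 241 and 737 in PBS-labelled libraries, and among these 4 libraries Unc93b1 had the same order from highest to lowest. In CpG-scrODN-labelled libraries the sum was 27.7, 19.7, 17.6 and 10.7, and the orders differed. Replicate 4, with the lowest sum, lay above replicates 2 and 3 in Unc93b1 (9.05 against 8.95 and 7.78 RPKM). In CpG-STAT3dODN-labelled libraries the sum was 47.2, 24.7, 38.2 and 118, and there too the orders differed: the library with the highest sum, replicate 4, had the third highest Unc93b1. Of the 11 B-cell markers tested, 11 were called lower in CpG-scrODN against PBS and 10 in CpG-STAT3dODN against PBS. Over all features, limma called 4.15% and 1.86% in these comparisons. Pax5, Ebf1 and Fcer2a passed the filter only through the libraries labelled PBS, where they were high, and their calls carry that limit. With the mean of the B-cell list as a covariate, the Unc93b1 difference was -0.62 (limma adjusted p = 0.369) for CpG-scrODN against PBS and -0.57 (limma adjusted p = 0.267) for CpG-STAT3dODN against PBS. The labelled groups explain a share of 0.914 of the variance of that covariate, so the B-cell level and the group cannot be told apart. That fit called 0 of all features in CpG-scrODN against PBS and 1079 in CpG-STAT3dODN against PBS, 646 of them higher. In bulk RNA, fewer cells of a type and less RNA per cell also cannot be told apart.

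Other marker sums differed too. The 7 T-cell markers measured, of 8 listed, summed to 16.0 to 55.5 RPKM in PBS-labelled libraries, 2.3 to 4.53 in CpG-scrODN-labelled ones and 2.53 to 5.41 in CpG-STAT3dODN-labelled ones. Plasmacytoid dendritic cells are another site of high Tlr9, and their 6 markers summed to 133 to 184, 59.8 to 79.7 and 69.2 to 83.6 RPKM. That sum followed Ly6d, with means of 69.0, 2.43 and 5.04 RPKM, and Spib, with 18.1, 0.945 and 2.64, whereas Bst2 was at 63.4, 68.5 and 67.1 and Siglech, the most specific of them, at 0.0127 to 0.212 RPKM in all 12 libraries. The 8 monocyte and macrophage markers summed to 119 to 193, 47.0 to 73.4 and 60.7 to 120.0 RPKM, and the 7 conventional dendritic cell markers to 3.88 to 7.21, 2.6 to 3.58 and 2.79 to 4.6. The part of these cells in the Unc93b1 result was not tested.

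By the closeness of centred log2(RPKM + 1) profiles over the 12 libraries, among 10175 candidates, the genes most like Unc93b1 were Ptprc, Traf3ip3, Mndal, Ikzf3 and Lrrk2. Their root mean square differences from it were 0.123, 0.135, 0.155, 0.158 and 0.173, where Unc93b1 itself varied about its mean by 1.01. Ptprc encodes CD45, the phosphatase of all nucleated blood cells, and Ikzf3 encodes Aiolos, a lymphoid transcription factor. Ptprc was at 37.2, 31.0, 30.3 and 52.0 RPKM in PBS-labelled libraries, 8.02, 7.2, 4.81 and 5.12 in CpG-scrODN-labelled ones, and 10.7, 6.81, 11.8 and 9.21 in CpG-STAT3dODN-labelled ones. As with Unc93b1, every library labelled PBS lay above the other 8.

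**Figure D2:**
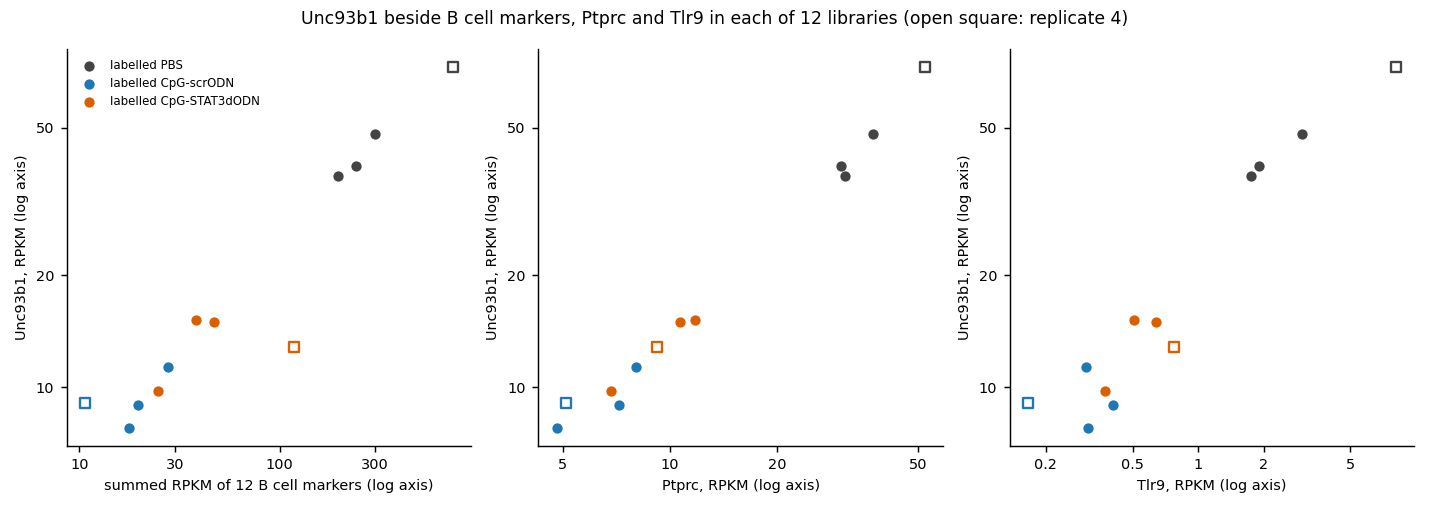
Unc93b1 RPKM (vertical, log axis) against the summed RPKM of 12 B-cell markers, against Ptprc RPKM and against Tlr9 RPKM (horizontal, log axes) in the 12 libraries; colours are labelled groups and open squares replicate 4. The libraries labelled PBS sit at the upper right of each panel, and replicate 4 labelled CpG-STAT3dODN has a B-cell sum of 118 beside an Unc93b1 level of 12.8.

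Myd88 (chr9:119335934-119340018), the adaptor, had the highest median of the 10 over the 12 libraries. In PBS-labelled libraries, though, the mean of Unc93b1 was higher, at 49.4 against 44.0 RPKM. Myd88 was at 42.3, 48.5, 49.8 and 35.4 RPKM in PBS-labelled libraries, 48.6, 50, 47.7 and 45.7 in CpG-scrODN-labelled ones, and 50.6, 48.9, 50.3 and 33.4 in CpG-STAT3dODN-labelled ones. The groups overlapped in all comparisons, and the lowest values were those of the 2 libraries low in Fos. The differences were 0.13 (95% interval -0.17 to 0.44) for CpG-scrODN against PBS, 0.05 (-0.26 to 0.36) for CpG-STAT3dODN against PBS, and -0.09 (-0.39 to 0.22) between the oligonucleotide labels, none of which passed. The annotation places 290 bases of its exons, 11.3%, opposite those of Acaa1a, and since the counting is not stated to use strand, reads there cannot be assigned.

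The kinase Irak4 (chr15:94543613-94568317), which MyD88 recruits first, was at 12.7, 12.8, 15 and 15.2 RPKM in PBS-labelled libraries, 15.4, 15.2, 15.4 and 14.6 in CpG-scrODN-labelled ones, and 16.5, 18.3, 15 and 13.4 in CpG-STAT3dODN-labelled ones. Its substrate Irak1 (chrX:74013914-74023921) was at 24.5, 23.7, 28.1 and 26.6, at 26.2, 25.7, 25.1 and 26.7, and at 26.3, 25.8, 25.2 and 24.2 RPKM in the same order. The groups overlapped for both kinases. Irak1 was the most tightly bounded of the 10: its 3 differences were 0.01, -0.02 and -0.03, and their 95% intervals together ran from -0.18 to 0.16. Irak4 differed by 0.12 (95% interval -0.10 to 0.33) and 0.17 (-0.05 to 0.38) from the libraries labelled PBS and by 0.05 between the oligonucleotide labels, none of which passed. With library quality weights the differences from PBS were 0.21 and 0.30 and passed (limma adjusted p = 0.0346 and 0.00823). Those weights called 1812 and 1248 of all features in these comparisons, against 452 and 202 without them. Irak4 shares 395 exon bases with Twf1 on the other strand. The level of Irak4 over that of Irak1 within a library was 0.519 to 0.572 in PBS-labelled libraries, 0.548 to 0.616 in CpG-scrODN-labelled ones and 0.553 to 0.711 in CpG-STAT3dODN-labelled ones.

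The less abundant family members varied more. Irak2 (chr6:113638467-113695026), a kinase-like protein that sustains the signal after IRAK1, was at 5.92, 4.04, 6.87 and 9.65 RPKM in PBS-labelled libraries, 3.87, 2.89, 3.33 and 2.89 in CpG-scrODN-labelled ones, and 3.45, 4.99, 3.19 and 6.27 in CpG-STAT3dODN-labelled ones. The libraries labelled CpG-scrODN all lay below those labelled PBS, while those labelled CpG-STAT3dODN overlapped both. The difference of CpG-scrODN against PBS was -0.80 ± 0.23 (SE; 95% interval -1.29 to -0.31) and missed the threshold with a limma adjusted p of 0.0806. It passed at -0.98 without PBS replicate 2 (limma adjusted p = 0.024) at -0.80 without CpG-STAT3dODN replicate 4 (0.0485), and at -0.58 with library quality weights (0.014). The differences of CpG-STAT3dODN from PBS, -0.46 (95% interval -0.95 to 0.03), and from CpG-scrODN, 0.34 (-0.15 to 0.83), did not pass, although with quality weights the former was -0.48 (limma adjusted p = 0.0419). As above, those weights called 1812 and 1248 of all features in the comparisons with PBS.

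Irak3 (chr10:120141648-120202130), the family's restraining member, had the lowest median of the 10, though Irak2 lay below it in 3 of the 12 libraries. It was at 3.48, 4.09, 4.78 and 6.38 RPKM in PBS-labelled libraries, 2.61, 2.42, 2.51 and 3.25 in CpG-scrODN-labelled ones, and 3.40, 3.34, 3.44 and 4.16 in CpG-STAT3dODN-labelled ones. Replicate 4 was the highest library of each group. Those labelled CpG-scrODN lay below all others, and those labelled CpG-STAT3dODN overlapped those labelled PBS. Irak3 fell by 0.60 ± 0.14 in CpG-scrODN against PBS (SE; 95% interval -0.91 to -0.29; limma adjusted p = 0.0354), a ratio of means of 1.74. This call was lost when any of 8 of the 12 libraries was left out: PBS replicates 2, 3 and 4, CpG-scrODN replicates 1, 2 and 3, and CpG-STAT3dODN replicates 1 and 3, with a limma adjusted p of 0.0173 to 0.118 over all 12 such fits. It was also lost with quantile normalization (0.111), size factor scaling (0.0663), no filter (0.0593) and only the 2 groups fitted (0.0863). The difference was 0.15 (limma adjusted p = 0.838) with the B-cell covariate. The summed RPKM of 8 mature neutrophil markers was 1720 to 5160 in PBS-labelled libraries, 527 to 2210 in CpG-scrODN-labelled ones and 1860 to 4160 in CpG-STAT3dODN-labelled ones. That sum followed S100a8, with means of 1250, 520 and 952 RPKM, and S100a9, with 1280, 541 and 1040. In CpG-scrODN against PBS the differences of all 8 lay below 0, from -1.70 to -0.05, and limma called 0 of them. The part of these markers in the Irak3 result was not tested. The difference of CpG-STAT3dODN from PBS was -0.29 (95% interval -0.60 to 0.03) and that from CpG-scrODN was 0.31 (limma adjusted p = 0.96), neither of which passed. Irak3 was 0.142 to 0.24 times the level of Irak1 under the PBS label, 0.094 to 0.122 times under CpG-scrODN and 0.129 to 0.172 times under CpG-STAT3dODN. The genes nearest to it in profile were Cd300lb, Padi2, Nedd9, Arid3a and Pik3r5, at root mean square differences of 0.106, 0.112, 0.118, 0.123 and 0.125 where Irak3 itself varied by 0.304. Relative to its own variation, Irak3 had no gene as near to it as Ptprc was to Unc93b1. In the annotation 192 of its exon bases lie opposite exons of Tmbim4.

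Traf6 (chr2:101678420-101701668), the ubiquitin ligase after the IRAK kinases, was at 6.93, 6.34, 7.06 and 10.5 RPKM in PBS-labelled libraries, 6.37, 6.46, 6.85 and 8.69 in CpG-scrODN-labelled ones, and 7.13, 6.60, 7.10 and 10.3 in CpG-STAT3dODN-labelled ones. Replicate 4 was the highest in each group. Traf3 (chr12:111166321-111267155) was at 6.80, 6.49, 6.72 and 11.1, at 5.96, 6.5, 6.09 and 5.20, and at 6.65, 5.80, 6.63 and 10.6 RPKM in the same order. The groups overlapped for both genes in each comparison. The differences of Traf6 were -0.09 (95% interval -0.45 to 0.27), 0.02 (-0.34 to 0.38) and 0.11 (-0.25 to 0.47), and those of Traf3 were -0.31 (-0.72 to 0.09), -0.06 (-0.47 to 0.34) and 0.25 (-0.15 to 0.66), none of which passed. Traf6 was 0.942 to 1.14 times the level of Traf3 in 11 libraries and 1.67 times in replicate 4 labelled CpG-scrODN.

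**Figure D3:**
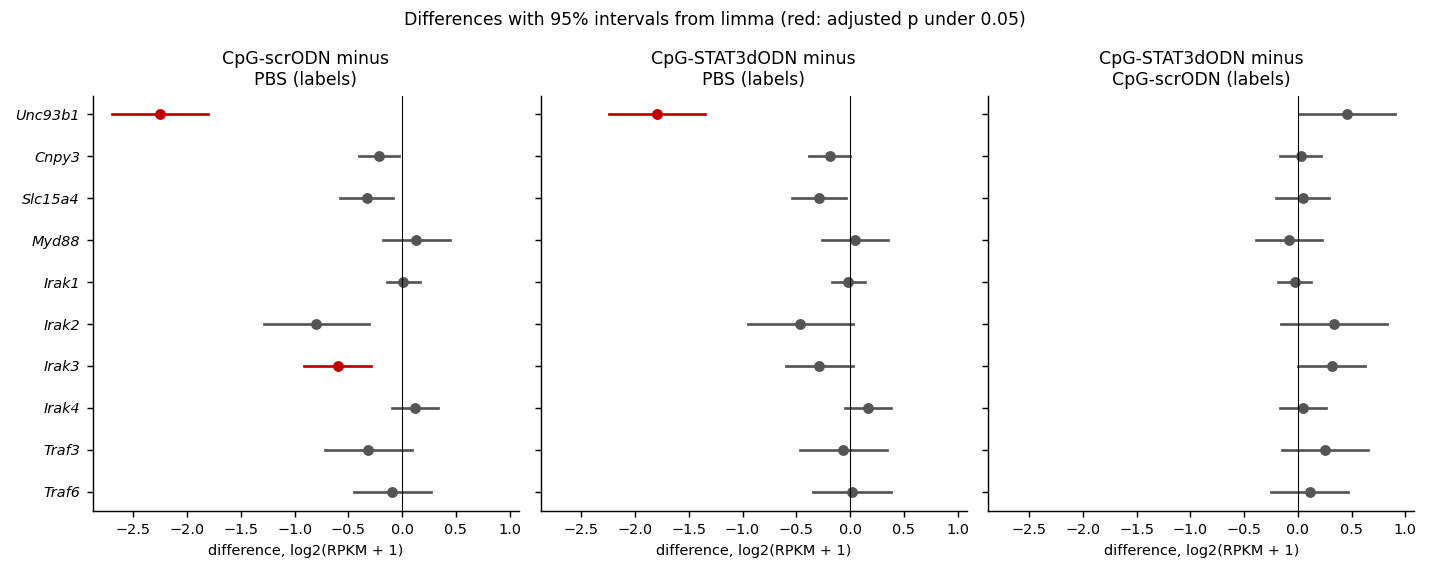
Differences on the log2(RPKM + 1) scale (horizontal axes) of the 10 genes in each of the 3 comparisons between labelled groups, with 95% intervals from limma; red marks an adjusted p under 0.05. Unc93b1 lies apart at -2.25 and -1.80, and the intervals of Irak1 stay within -0.18 to 0.16.

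Counted together, 2 of the 10 genes fell in CpG-scrODN against PBS (Unc93b1 and Irak3) and 0 rose, where limma called 4.15% of all features tested, 4.04% as lower. Over all features the calls were 12 higher and 440 lower, or 75 and 318 with quantile normalization. The groups did not overlap for 4 of the 10 (Unc93b1, Cnpy3, Irak2 and Irak3), against 13.9% of all features. In CpG-STAT3dODN against PBS 1 of the 10 fell, Unc93b1, where limma called 1.86% of features, 1.83% as lower, and it was also the only one of the 10 whose groups did not overlap (5.04% of features). Between the oligonucleotide labels limma called 0 of the 10, as it did 0% of features. At an unadjusted p under 0.05 there were 1 of the 10, Unc93b1, and 295 features in all, and the groups did not overlap for 1 of the 10, Irak3 (4.25% of features). With library quality weights, 2 of the 10 passed in this comparison, Unc93b1 at 0.70 and Irak3 at 0.33 (limma adjusted p = 0.0025 and 0.00659). Those weights called 607 of all features there, against 0 without them. The median difference of the 10 was -0.27, -0.13 and 0.08 in the 3 comparisons, and that of all features -0.05, -0.01 and 0.03.

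Around these genes, 47 others of the pathway were listed by role, of which 46 had a row in the files and 39 were tested. In each comparison with PBS, 3 of the 39 fell and 0 rose. Over all features, limma called 4.15% in CpG-scrODN against PBS (4.04% as lower) and 1.86% in CpG-STAT3dODN against PBS (1.83% as lower). Between the oligonucleotide labels 0 of the 39 passed, with 2 at an unadjusted p under 0.05. Only 2 of the 7 endosomal receptors passed the filter, Tlr9 and Tlr13. Tlr9, the CpG receptor, was at 3.00, 1.74, 1.90 and 8.10 RPKM in PBS-labelled libraries, 0.306, 0.405, 0.312 and 0.166 in CpG-scrODN-labelled ones, and 0.642, 0.372, 0.505 and 0.774 in CpG-STAT3dODN-labelled ones. The libraries labelled PBS did not overlap with the rest, and replicate 4 had the highest value of them. Tlr9 reached an RPKM of 1 in the PBS-labelled libraries alone, and so passed the filter only through the group where it was high. Its p-values carry that limit. The receptor fell by 1.67 (limma adjusted p = 0.00784) and 1.40 (0.0396) on the log2 scale. The latter call was lost in 9 of 12 fits that left out a library (limma adjusted p = 0.00374 to 0.141): all 8 that left out a library with an oligonucleotide label, and that without PBS replicate 1. With the B-cell covariate its differences were 0.95 (limma adjusted p = 0.309) and 0.57 (0.405). Tlr13 differed by -0.45 and -0.22 and did not pass.

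Of the 9 folding, transport and cleavage genes tested, 0 passed, with a median of -0.24 in CpG-scrODN against PBS and -0.11 in CpG-STAT3dODN against PBS. The one closest to the threshold, named after its values were seen, was Ctss, which encodes the endosomal protease cathepsin S, at 33.5 to 70.2 RPKM in PBS-labelled libraries, 14.4 to 34.3 in CpG-scrODN-labelled ones and 13.8 to 26.7 in CpG-STAT3dODN-labelled ones (-1.11 and -1.07; limma adjusted p = 0.0531 and 0.109). Of 19 downstream kinases, ubiquitin enzymes and transcription factors, 2 fell in each comparison with PBS and their medians were -0.16 and -0.04. One was Map3k8, a MAP kinase kinase kinase activated by TLR signals, at 2.20 to 2.47 RPKM in PBS-labelled libraries, 0.686 to 0.897 in CpG-scrODN-labelled ones and 0.812 to 1.24 in CpG-STAT3dODN-labelled ones. It fell by 0.91 (limma adjusted p = 0.000265) and 0.72 (0.00201). Map3k8 passed the filter only through the libraries labelled PBS, where it was high. As with Tlr9, its p-values carry that limit. The other was Ikbke, a kinase of the interferon branch, at 4.37 to 6.38, 1.94 to 2.28 and 2.67 to 3.55 RPKM, which fell by 0.98 (limma adjusted p = 0.000369) and by 0.635 (0.0104). With the B-cell covariate neither passed, at -0.62 and -0.50 for Map3k8 (limma adjusted p = 0.195 and 0.156) and -0.48 and -0.26 for Ikbke (0.345 and 0.485). Of 9 tested genes that restrain the pathway, 0 passed in any comparison and the medians were -0.14, -0.06 and 0.13. Tnfaip3, the A20 ubiquitin editor, named after its values were seen, stood apart from its list at 24.9 to 63.3 RPKM in PBS-labelled libraries, 73.4 to 161 in CpG-scrODN-labelled ones and 22.1 to 47.8 in CpG-STAT3dODN-labelled ones. Its differences were 1.14 (limma adjusted p = 0.111), -0.47 (0.889) and, between the oligonucleotide labels, -1.62 (0.96).

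**Figure D4:**
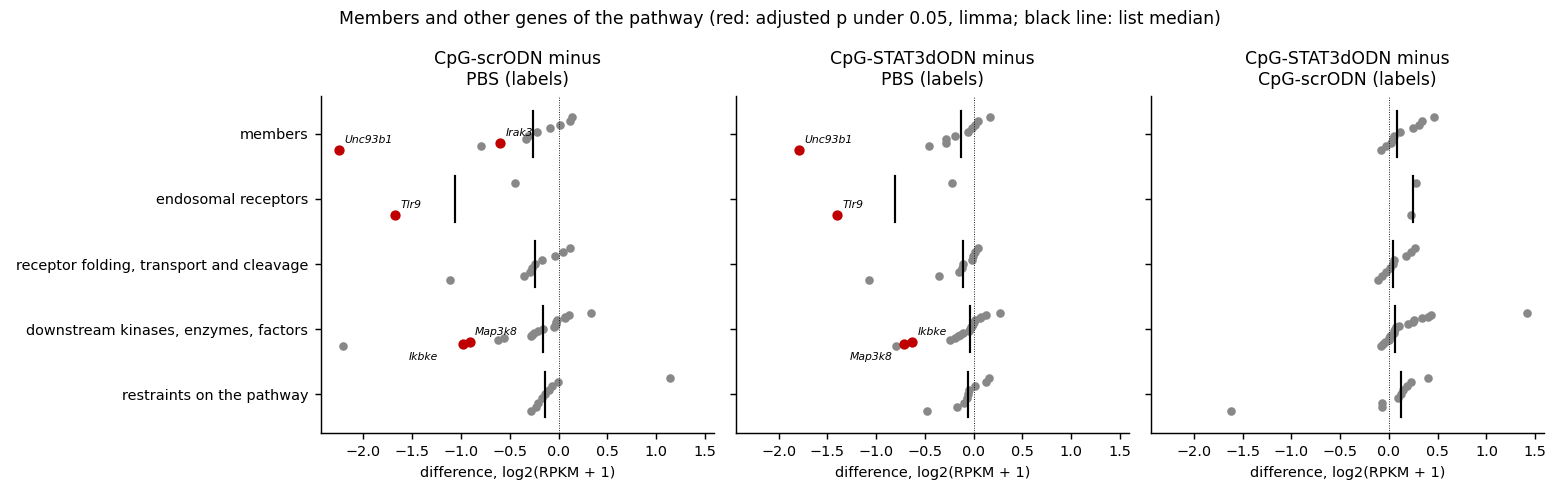
Differences on the log2(RPKM + 1) scale (horizontal axes) of the 10 genes, named members, and of the other tested pathway genes by list in the 3 comparisons between labelled groups; each point is a gene, red marks a limma adjusted p under 0.05 and black lines are list medians. The called genes are Unc93b1, Irak3, Tlr9, Map3k8 and Ikbke in the first panel, all of these but Irak3 in the second and none in the third.

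The 2 libraries low in Fos were extreme for 3 of the 10 genes. Myd88, at 35.4 and 33.4 RPKM, lay below the other 10 libraries (42.3 to 50.6). Traf3, at 11.1 and 10.6, and Traf6, at 10.5 and 10.3, lay above the other 10 (5.20 to 6.80 and 6.34 to 8.69). These 2 libraries carry different labels and the same replicate number. A place above the other 10 was taken by 2 of the 10 genes (20%) and by 23.4% of all features tested, and a place below by 1 of the 10 (10%) and by 18.8% of features, so the 10 genes were near the background. Of the other 39 pathway genes, 16 lay above (41.0%) and 1 below (2.56%). Examples named after their values were seen were Traf1, an NF-kB target and TRAF family member, at 58.8 and 51.7 against 0.497 to 2.97 RPKM, Irf5, a transcription factor downstream of MyD88, at 41.4 and 34.6 against 13.2 to 18.3, and Tnip1, a partner of A20, at 29.5 and 29.4 against 10.1 to 14.6. Without both libraries, Unc93b1 differed by -2.05 and -1.59 from the libraries labelled PBS (limma adjusted p = 5.63e-05 and 0.000762) and Irak3 by -0.47 and -0.21 (0.0232 and 0.426).

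**Figure D5:**
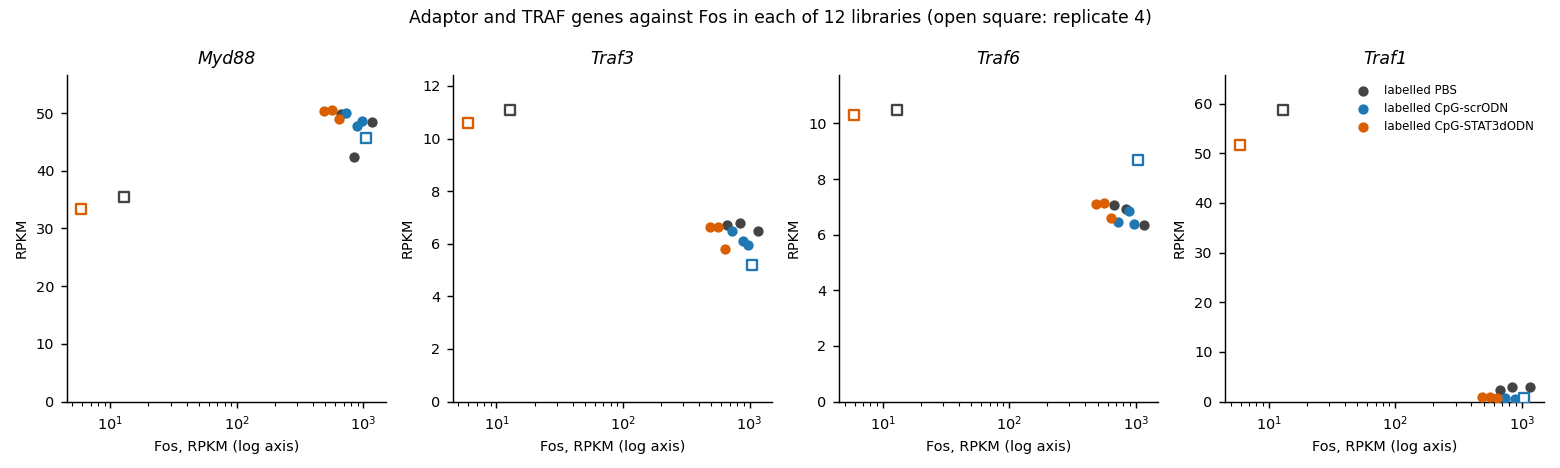
RPKM of Myd88, Traf3, Traf6 and Traf1 (vertical axes, from 0) against Fos RPKM (horizontal, log axes) in the 12 libraries; colours are labelled groups and open squares replicate 4. The 2 libraries with Fos at 12.9 and 5.91 lie below the other 10 for Myd88 and above them for the TRAF genes.

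The promoters of Myd88 and Traf3 are shown because, of the 9 genes with a RefSeq promoter entry, they were the only ones in which any of 6 motifs was found. The STAT site TTCNNNGAA, the kind of sequence a STAT3 decoy carries, was searched on both strands of the 250 bases before the start. It was found in Myd88 alone of the 9, and in 7.02% of 32851 promoter windows. The interferon response letters, GAAA, any 2 bases and GAAA (2.98% of windows), were also found only in Myd88, overlapping the STAT letters, and the NF-kB core, GGG, any 2 bases and TTTCC (1.41%), only in Traf3. The AP-1 site TGANTCA (6.75%), the ETS-IRF letters, GGAA, any 2 bases and GAAA (2.3%), and the CRE TGACGTCA (1.55%) were found in none of the 9. The window of Slc15a4 (chr5:127617393-127617642) lay inside the gene span given above, and annotated exons covered all 250 bases. The bases before the outer end of that span were not searched. The window of Cnpy3 also lay inside its span, and 1 of the 2 windows of Irak3 was wholly exonic. Both stretches are from RefSeq, build GRCm38.p6, written along the gene's strand. That of Myd88 is chr9:119340042-119340268, minus strand, with the joined STAT and interferon response matches, 46 to 31 bases before the start, in capitals. That of Traf3 is chr12:111166340-111166369, plus strand, with the NF-kB match in capitals. It ends 1 base before the transcript start used by the RefSeq promoter entry, which lies inside the gene span given above. A match describes letters only, and no binding was measured here.
Myd88: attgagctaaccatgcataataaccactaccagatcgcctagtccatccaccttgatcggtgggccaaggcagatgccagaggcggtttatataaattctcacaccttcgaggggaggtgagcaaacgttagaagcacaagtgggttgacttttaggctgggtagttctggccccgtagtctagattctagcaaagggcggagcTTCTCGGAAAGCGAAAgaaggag
Traf3: cgcgcgcccaggcggcccgcGGGGATTTCC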

How the data were processed

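RNA was measured in 12 libraries, 4 per labelled group. The deposited values are RPKM per gene symbol, per the file headers. The submitters' processing notes name mm10, TopHat 1.3.1 and Partek 6.12.0713, with no roles; these sources do not state the annotation, the filters or the use of strand. Estimated depth was 31410000 to 36170000 reads. Of the low values, 50.5% to 54.9% were whole multiples of 1 read (tolerance 0.05 reads), which does not allow a count test. All libraries differed from each other.

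Values were analysed as log2(RPKM + 1). Features whose RPKM reached 1 in 4 or more of the 12 libraries (10886 of 24310) entered a limma 3.58.1 model in R 4.3.3 with a mean per labelled group and an intensity trend. The test was two-sided, with Benjamini-Hochberg adjustment over all features, called under 0.05. Intervals are unadjusted 95% intervals. The model was tested on simulated data.

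The 10 genes, taken by name from the pathway with no threshold on their values, and all lists were chosen with earlier results of these data known. Named beside them are called genes of the pathway lists (at most 4 per list and comparison, by size), the 5 named genes nearest in profile to each called gene of the 10, and markers needed for another cell type's level. Lists are described by counts and medians only. Positions and promoters come from RefSeq on GRCm38.p6, with 9 of 10 genes matched to a promoter, and exon overlaps from GENCODE. Alternatives changed the pseudocount, the filter, the scaling, the libraries fitted, their weights, a replicate block and a B-cell covariate.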

Additional observations from a re-analysis of the deposited data

Results flagged for a closer look

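Of 30 sets of 4 libraries looked at (10 genes in 3 labelled groups), 4 held a library farther from the rest than Dixon's limit for 4 values allows, where chance gives about 1 in 20. All 4 were a replicate 4. Over all features tested, 10.1% of such sets held one, and 78.9% of those were a replicate 4. In the group labelled CpG-STAT3dODN, Myd88 was lowest in replicate 4 at 33.4 RPKM, with the nearest library at 48.9. Irak3 was highest there at 4.16, with the nearest at 3.44. Traf6 was highest there at 10.3, with the nearest at 7.13. In the group labelled PBS, Traf3 was highest in replicate 4 at 11.1, with the nearest at 6.80. These are the 2 libraries low in Fos, and the part of what sets them apart in these values was not tested.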

How the results depend on the processing

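Each comparison was refitted under 23 alternatives. Of 687 values of the 10 genes, 610 kept their direction and side of the threshold, 14 lost and 8 gained a call with the same sign, and 55 changed sign, 54 of them values that had not passed. Of the 55, 1 passed with its new sign, Traf3 in CpG-STAT3dODN against PBS with the B-cell covariate. Unc93b1 kept both calls under all alternatives but the B-cell covariate (-2.37 to -2.05 and -1.91 to -1.48 otherwise). The cause of the changes below was not tested.

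For CpG-scrODN against PBS, where 2 of the 10 were called, 1 was called with no filter, quantile normalization, size factor scaling, only the 2 groups compared and an RPKM floor of 5 (where Irak3 was not tested), 4 with quality weights and 1 to 3 when a library was left out. For CpG-STAT3dODN against PBS, quality weights called 3, and between the oligonucleotide labels 2. The estimation of these weights stopped before its tolerance. They called 1812, 1248 and 607 features in the 3 comparisons, against 452, 202 and 0.

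With the B-cell covariate, 0 of the 10 passed in CpG-scrODN against PBS, as did 0 of all features, where Slc15a4 was at 0.12, Myd88 at -0.91, Irak2 at 0.80, Irak3 at 0.15, Irak4 at -0.01, Traf3 at 1.41, Traf6 at 1.02 and Tlr9 at 0.95. In CpG-STAT3dODN against PBS, Slc15a4 was at 0.052, Myd88 at -0.74, Irak2 at 0.73, Irak3 at 0.27, Tlr9 at 0.57 and Traf3 at 1.23, which was called higher (limma adjusted p = 0.0379) while Unc93b1 lost its call; over all features 1079 were called, 646 of them higher. Between the oligonucleotide labels, Slc15a4 was at -0.069, Myd88 at 0.176, Irak2 at -0.062, Traf3 at -0.18 and Traf6 at -0.17.

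Signs of other small values also changed. In CpG-scrODN against PBS, Traf6 was 0.005 with quantile normalization and 0.049 without both libraries low in Fos. In CpG-STAT3dODN against PBS, Irak1 was 0.082 with quality weights, 0.025 with size factor scaling, 0.0 with quantile normalization, 0.02 without all libraries numbered 4 and 0.02 without both low in Fos. Between the oligonucleotide labels, Myd88 was 0.047 with quality weights, 0.034 without all libraries numbered 4 and 0.057 without both low in Fos; Irak1 was 0.034 with quality weights and 0.007 without all numbered 4; Cnpy3 was -0.008 with quantile normalization and -0.005 with size factor scaling; Slc15a4 was -0.005 with quantile normalization, and Traf6 -0.018 without both low in Fos. Leaving out 1 library at a time gave Irak1 -0.024 to 0.054 and Traf6 -0.182 to 0.049 in CpG-scrODN against PBS. It gave Myd88 -0.05 to 0.19, Irak1 -0.053 to 0.025, Traf3 -0.23 to 0.10 and Traf6 -0.11 to 0.16 in CpG-STAT3dODN against PBS. Between the oligonucleotide labels it gave Cnpy3 -0.033 to 0.079, Slc15a4 -0.029 to 0.091, Myd88 -0.139 to 0.057, Irak4 -0.023 to 0.118 and Traf6 -0.018 to 0.2.

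In the pathway lists for CpG-scrODN against PBS, endosomal receptors called went from 1 to 0 with the B-cell covariate. Folding, transport and cleavage genes went from 0 to 2 with quality weights, to 1 without all libraries numbered 4 and to 0 to 1 when a library was left out. Downstream genes went from 2 to 0 with the covariate or an RPKM floor of 5 (where Map3k8 and Ikbke were not tested). They went to 5 with quality weights and to 4 without all numbered 4. For CpG-STAT3dODN against PBS, endosomal receptors went from 1 to 0 with no filter, quantile normalization, the covariate or only the 2 groups compared, and to 0 to 1 when a library was left out. Folding genes went from 0 to 1 with the covariate or quality weights. Downstream genes went from 2, both lower, to 0 with the floor of 5 (where Map3k8 and Ikbke were not tested). They went to 1 with only the 2 groups compared and to 4 with the covariate, all 4 higher. Restraints went from 0 to 3 with the covariate, 2 higher and 1 lower. Between the oligonucleotide labels, quality weights called 1, 1, 3 and 1 genes of the 4 lists, against 0.

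The replicate numbers were not taken as pairs, since the labels do not say that they mark a shared mouse, litter or day. The correlations of deviations between same-numbered libraries ran from -0.341 to 0.817. The highest was that of the replicate 4 libraries labelled PBS and CpG-STAT3dODN, both low in Fos. With a replicate block the calls among the 10 were 2, 1 and 0, as without it, and over all features 523, 213 and 0. In the block fit the folding genes called in CpG-scrODN against PBS went from 0 to 1. Depth limits the lowest genes most, such as Irak3, whose value rests on the fewest reads per kilobase of the 10.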
